A study of Mus musculus with 6 samples.

Results

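The non-collagen matrix glycoproteins and integrins were the probes whose platform gene symbol named a laminin subunit, an integrin subunit, a fibulin, fibrillin, thrombospondin or EFEMP protein, or 1 of a fixed set of further matrix genes such as fibronectin, nidogens, perlecan, agrin, tenascin-C, periostin, SPARC and lumican. The genes were taken by name and not by any measured value, and no fibrillin symbol was found among them. They comprised 126 of the 45281 probes on the array and 59 of the 19057 genes with a symbol. Of the 126 probes, 36 probes for 22 genes were above background on all 3 arrays of at least 1 genotype and were tested, and 90 were not. A further 37 genes had no tested probe, and 21 of these had no probe above background on any array.

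An epithelium rests on a basement membrane in which laminins assemble into a network, nidogens, perlecan and agrin link that network to the collagen scaffold and to cells, and fibronectin fills the matrix beneath. Integrins, each made of an alpha and a beta subunit, anchor cells to these proteins and pass signals from them. At the lens placode, the thickened head ectoderm that forms the lens, matrix between the ectoderm and the optic vesicle holds the tissues together before the placode invaginates.

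The samples compared wild-type (WT) lens placode with surface ectoderm of CBP/p300-/- (KO) mouse embryos, all at embryonic day 9.5 and all of a mixed FVB and 129 background. CBP and p300, encoded by Crebbp and Ep300, are lysine acetyltransferases that act as transcriptional co-activators. In the study the double mutants are conditional, carrying floxed alleles that Cre recombines in the presumptive lens ectoderm. The Cre line of these embryos is not settled by the sources used here: the methods name Pax6-Cre, driven by a Pax6 lens enhancer and promoter, for array embryos a day older, whose controls were Cre-negative embryos with the same floxed alleles, and the labels here say only wild type. Tissue of 3 embryos per genotype was collected by laser microdissection and its RNA pooled, and 3 amplifications of each pool were hybridised to 1 Illumina MouseWG-6 v2 array each. By the labels, arrays of 1 genotype are thus technical replicates and p-values cover amplification spread alone, whereas the study, writing of the older embryos, calls its arrays biological replicates, and the sources used here do not settle which holds. The tissue name in the labels changes with the genotype, so that tissue and genotype cannot be told apart. Fewer cells of a type and less RNA per cell cannot be told apart either.

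Between 12212 and 17195 probes were above background on an array, at a detection p-value under 0.01, and between 37 and 50 of these were matrix or integrin probes. The arrays of a genotype correlated at r of 0.77 to 0.79 in WT and 0.85 to 0.86 in KO over the tested probes, and arrays of different genotypes at 0.73 to 0.78. Neither of the 2 tested Crebbp probes (log2 fold changes of 0.19 and 0.11) nor either of the 2 tested Ep300 probes (2.60 and 0.18) was called, and where these probes lie relative to the deleted exons is not given in the sources used here, so that their levels do not check the labels. Of the 13 surface ectoderm and epithelial markers, 9 had a tested probe, among them Cdh1, Epcam, Krt8 and Tfap2a with a probe above background on every array, although Grhl3, Krt19 and Trp63 had none tested and Krt14 was not above background on any array. Of the lens placode markers Foxe3, Pitx3 and the dimmer Mab21l1 probe were called lower in KO. The other tested probes of that list were uncalled. They gave log2 fold changes of -1.9 for the brighter Mab21l1 probe, -2.73 for Maf and -1.59 and -1.39 for Prox1. Pax6 gave -0.20 and -0.54, Six3 0.13 and 0.15, and Sox2 -1.74 and 0.41. The summed level of that list was 12.98 to 13.15 in WT and 12.11 to 12.37 in KO. Here and below a summed level is the log2 of the summed linear intensities, with the brightest probe of each gene taken, tested or not. The other lists read here moved unevenly, and no probe of them was called. The blood and endothelial levels were higher in KO and the surface ectoderm level was lower, while the optic vesicle and macrophage levels overlapped. The summed level of the blood list was 12.49 to 12.87 in WT and 13.74 to 13.80 in KO, and that of the endothelial list 8.05 to 8.23 and 9.23 to 9.98, although Pecam1, Cdh5, Kdr, Tie1 and Emcn were not above background on any array and Cldn5 was the 1 endothelial gene tested (3.67, uncalled). It was 9.80 to 12.23 and 10.52 to 11.12 for the optic vesicle list and 7.56 to 7.84 and 7.36 to 8.38 for the macrophage list, which had no tested probe, and 14.42 to 14.52 and 13.88 to 14.02 for the surface ectoderm list. The part of these cells in the matrix and integrin values was not tested.

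Between the genotypes, Tnc (tenascin-C) and Itgb8 (the integrin beta 8 subunit) were lower in KO, and Postn (periostin) was higher. A probe was called at a Benjamini-Hochberg adjusted p under 0.05 in limma with a log2 fold change of at least 1 in size. By this rule 3 of the 36 tested matrix and integrin probes were called lower (2 for Tnc and 1 for Itgb8), where 0.425% of all 12697 tested probes were, and 1 was called higher, where 0.417% of all were. Over all probes these were 54 lower and 53 higher, and with median scaling 29 lower and 63 higher. At an unadjusted p under 0.05, 11 probes were lower and 2 higher, against 6.61% and 8.58% of all tested probes. None of the tested laminin, nidogen, perlecan, agrin or fibronectin probes was called. All 3 KO arrays lay below all 3 WT arrays on 13 of the 36 probes (10.2% of all tested probes) and above them on 2 (11.3%). The log2 fold change was negative on 25 and positive on 11, with a median of -0.61, against 47% negative and a median of 0.05 over all tested probes. Because Postn and Lum passed the filter through KO alone, and Itgb8, Itgb5, Tnc and others through the 3 WT arrays, these counts describe the probes and give no support of their own. On the 25 probes above background on all 6 arrays, 16 fold changes were negative and 9 positive, with a median of -0.57 against -0.02 over all 8894 such probes, of which 52.2% were negative, and none of the 25 was called (0.124% of such probes were called lower and 0.0225% higher).

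**Figure D1:**
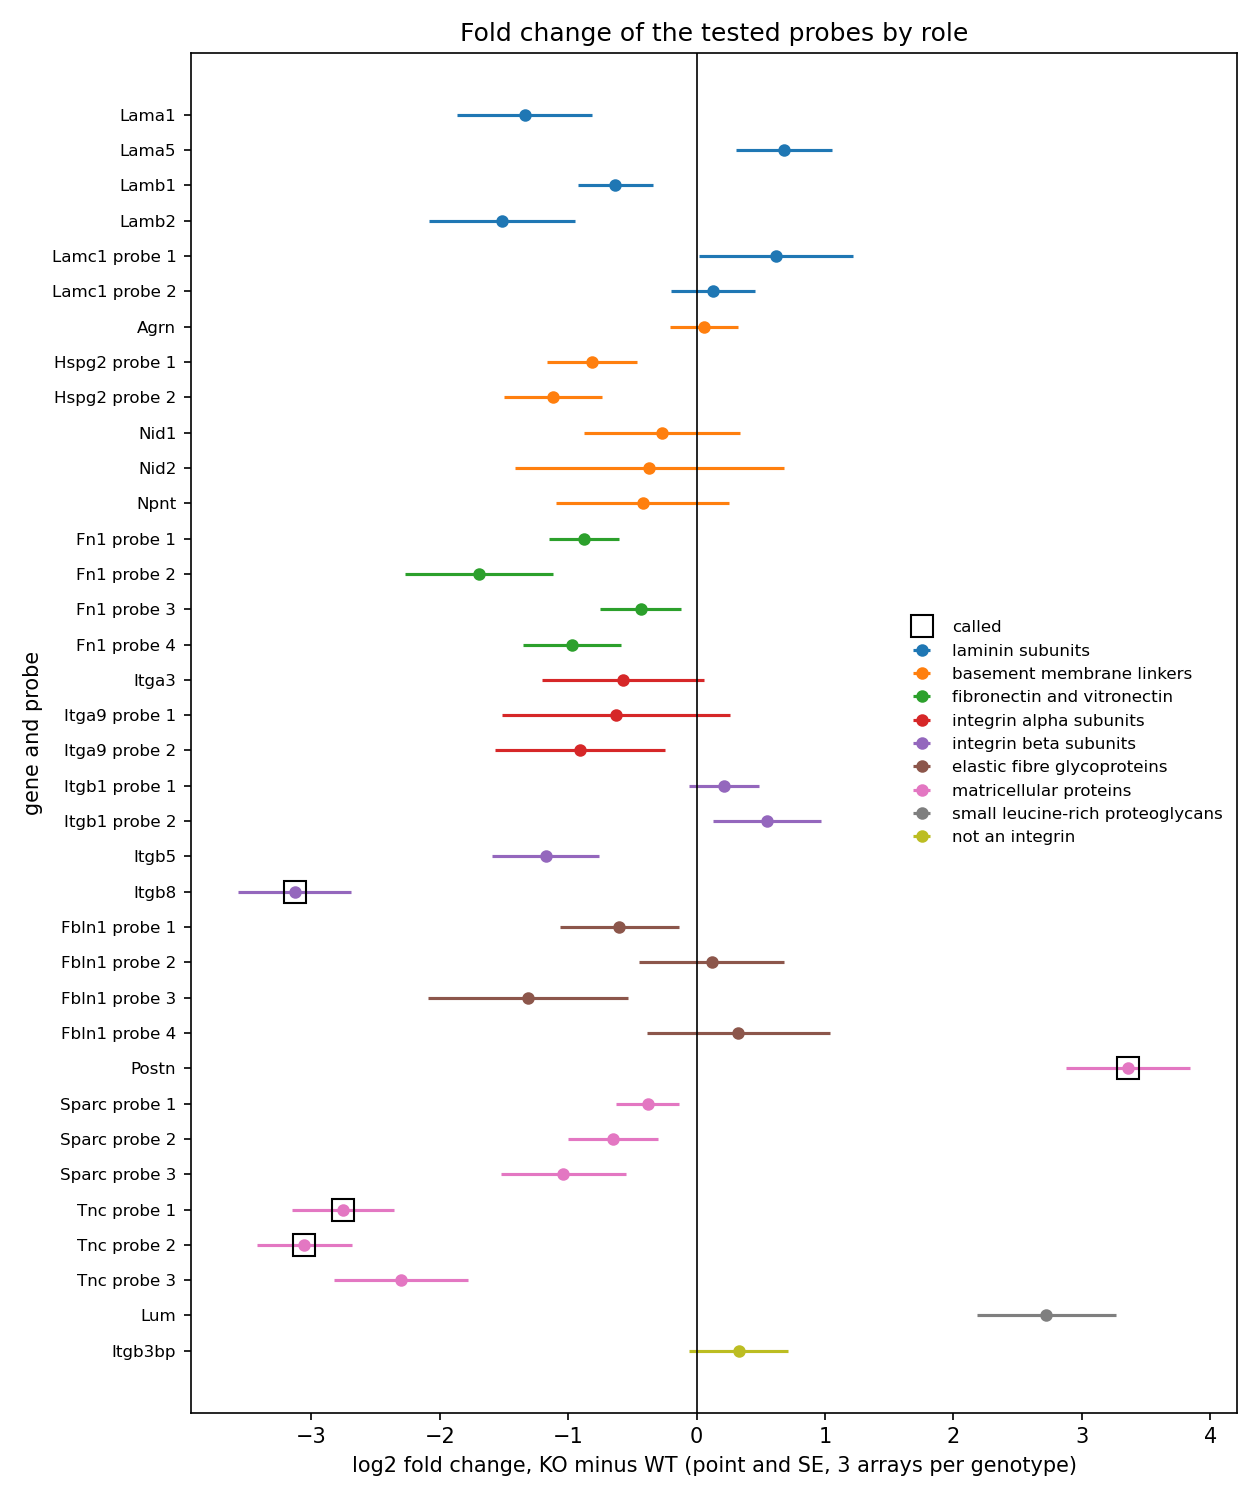
Log2 fold change, KO minus WT, of the 36 tested probes, grouped by role, with the standard error of the fit on 3 arrays per genotype. Probes of 1 gene are numbered from the brightest by mean intensity, squares mark the 4 called probes, and Tnc and Itgb8 lie near -3 while Postn and Lum lie near 3.

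The matricellular proteins, which are secreted into the matrix and change how cells adhere to it without building its scaffold, held 3 of the 4 called probes. They comprised 24 probes for 11 genes, of which 7 probes for Tnc, Postn and Sparc were tested. Tenascin-C binds fibronectin and weakens adhesion to it. On a log2 intensity scale, Tnc probe 2 read 9.34, 8.83 and 8.41 in WT and 5.34, 5.98 and 6.08 in KO. The 3 WT arrays lay more than 2 log2 units above the highest KO array, and 2 of the 3 KO arrays were still above background. The fold change was -3.06 (SE 0.37, limma adjusted p = 0.0335). Tnc probe 1 read 9.30, 8.78 and 8.50 in WT and 5.45, 6.48 and 6.39 in KO. Its log2 fold change was -2.75 (SE 0.40, limma adjusted p = 0.0489), again with 2 KO arrays above background. Tnc probe 3 read 8.52, 7.92 and 7.36 in WT and 5.51, 4.88 and 6.51 in KO. Its groups did not overlap either, but its log2 fold change of -2.30 (SE 0.52, limma adjusted p = 0.118) was not called. On all 3 probes the WT arrays stood in the same order, with replicate 1 brightest and replicate 3 dimmest.

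The remaining 4 Tnc probes were too dim to test and did not all run the same way. One was above background on 2 WT arrays and 1 KO array, with a log2 difference of -1.32, another on 1 WT array alone, with a difference of -0.60, and a further one on none. The last, designed to a separate cDNA sequence, was above background on no WT array and on KO replicates 1 and 2, where it read 6.18 and 7.84, against 4.74 to 4.94 in WT. The difference on the cDNA probe (1.51) thus ran opposite to those on the tested probes, and which transcripts each probe detects is not given in the sources used here.

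Periostin, a secreted protein of mesenchymal matrices that binds tenascin-C, moved the other way. Its tested probe read 4.69, 4.66 and 4.80 in WT, not above background on any of these arrays, and 7.02, 8.67 and 8.53 in KO, where it was above background on all 3. Because the WT level is only a bound, Postn was at least 3.75-fold higher in KO, the bound being taken against the dimmest probe above background on each WT array. This bound is a difference of means and has no interval. The dimmest such probe read 6.71 on WT replicate 1, close to the 7.02 of KO replicate 1, and 5.88 and 5.90 on WT replicates 2 and 3. The fitted log2 fold change was 3.36 (SE 0.48, limma adjusted p = 0.0489). The 2 other Postn probes were also not above background in WT, and were above it on 1 and 2 KO arrays, with log2 differences of 1.56 and 1.17.

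Sparc, which encodes a collagen-binding glycoprotein of basement membranes and mesenchyme, had 3 tested probes with negative fold changes and no call. Its brightest probe read 10.86, 10.71 and 10.60 in WT and 10.38, 10.21 and 10.45 in KO. The groups did not overlap, but the log2 fold change was -0.38 (SE 0.25, limma adjusted p = 0.544). The other probes gave -0.65 and -1.04, with overlapping groups. The other 8 matricellular genes had no tested probe. Smoc2, Sparcl1, Thbs2 and Thbs4 were not above background on any array, and Smoc1, Spon1, Thbs1 and Thbs3 were above it on 1 or 2 arrays.

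The small leucine-rich proteoglycans, which bind collagen fibrils and set their spacing, were represented by Lum, Bgn and Dcn. Lumican is a keratan sulfate proteoglycan best known from the corneal stroma. Its tested probe read 4.60, 4.94 and 5.08 in WT and 8.77, 6.90 and 7.11 in KO. As with Postn, the 3 KO arrays were above background and no WT array was. The bound, again a difference of means without an interval, put Lum at least 2.70-fold higher in KO. KO replicate 2, at 6.90, lay close to the dimmest probe above background on WT replicate 1, at 6.71. The fitted log2 fold change of 2.72 (SE 0.54, limma adjusted p = 0.0898) was not called. The other Lum probe was likewise at background in WT and higher than it on 2 KO arrays, with a difference of 1.58. No Dcn probe was above background on any array, and Bgn was above it on 2 WT arrays and 1 KO array, with a difference of -1.07.

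Mesenchymal markers did not all move with Postn and Lum. Of the 17 periocular mesenchyme and neural crest markers listed (matrix members left out), 16 were on the array and 11 had a tested probe, with a median log2 fold change of 0.81. Alx4, Col1a1, Col1a2, Col3a1, Foxc2, Prrx1 and Vim passed the filter through KO alone, and Snai1 and Snai2 through WT alone. The filter thus bears on these signs, and the median gives no support of its own. Alx4 alone was called higher (4.05, limma adjusted p = 0.0489). No WT array was above background on that probe, so that Alx4 was at least 10.7-fold higher, a bound without an interval. Its other probes, which were not tested, had differences of 0.19 and 0.18. They were above background on no array and on 1 array of each genotype, so that they bear little on the difference. Col1a1 and Col3a1 had uncalled fold changes of 3.0 and 2.35. Pdgfra and Snai2 had uncalled fold changes of -2.21 and -2.86. Pdgfrb, Sox10 and Twist1 were not above background on any array. The summed log2 level of the list was 11.43 to 12.22 in WT and 11.54 to 11.62 in KO, so that the groups overlapped. Bright probes weigh most in this sum, and by mean those of Pdgfra (-2.21) and Foxc1 (-1.13, uncalled) were the brightest in WT. The part of such cells in the Postn and Lum values was not tested.

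**Figure D2:**
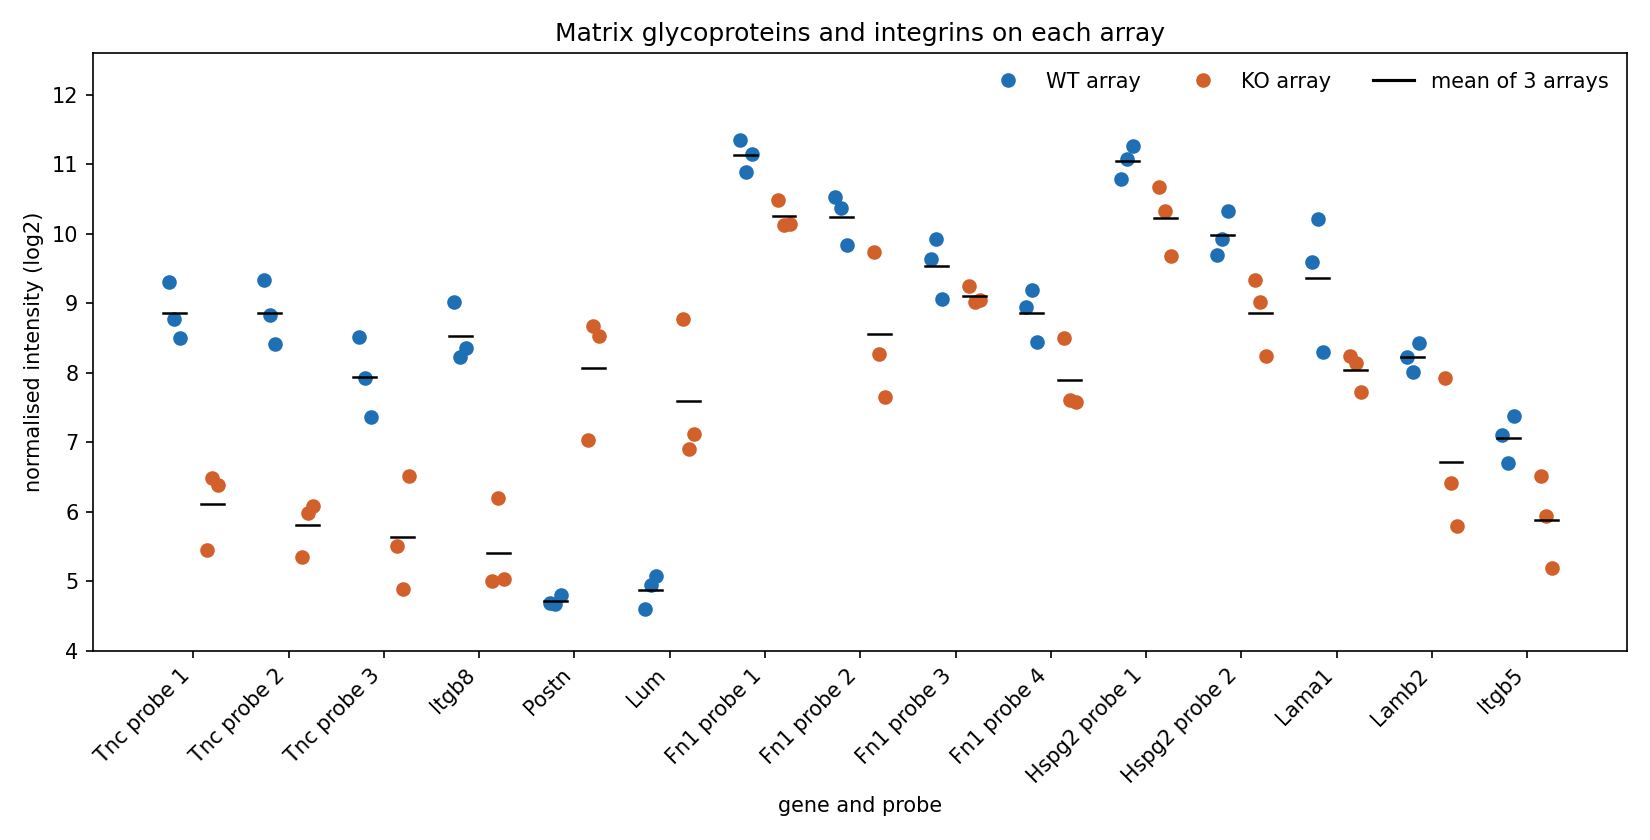
Normalised log2 intensity (vertical axis) of 15 probes for 9 genes on each of the 6 arrays, WT in blue and KO in orange, with a bar at the mean of 3 arrays. The means of the Tnc and Itgb8 probes lie at about 8 to 9 in WT and 5 to 6 in KO, Postn and Lum lie at the background level near 5 in WT only, and the other genes shift by smaller amounts.

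The integrin beta subunits held the other called probe. They comprised 17 probes for 9 genes, and 4 probes for Itgb1, Itgb5 and Itgb8 were tested. Itgb8 pairs with the alpha v subunit and activates latent TGF-beta at the cell surface. Its tested probe read 9.01, 8.23 and 8.36 in WT and 4.99, 6.20 and 5.02 in KO. Itgb8 was lower in KO, with a fitted log2 fold change of -3.13 (SE 0.44, limma adjusted p = 0.048). Of the KO arrays, only replicate 2 detected it above background, so that the size of the fold change rests on KO readings mostly at background. The 2 other Itgb8 probes were not above background on any array and so do not bear on the difference. The partner subunit, Itgav, which the naming rule left out, had an uncalled log2 fold change of 0.24 (limma adjusted p = 0.84).

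Itgb5, another partner of alpha v, binds vitronectin. It read 7.11, 6.70 and 7.37 in WT and 6.52, 5.94 and 5.19 in KO, with a log2 fold change of -1.18 (SE 0.42, limma adjusted p = 0.262) that was not called although the groups did not overlap. Itgb1, the beta subunit of most laminin and fibronectin receptors, gave positive fold changes on both probes. Its brighter probe read 10.02, 10.18 and 9.74 in WT and 10.34, 9.94 and 10.30 in KO, with a log2 fold change of 0.22 (SE 0.27, 95% interval -0.45 to 0.88), and the dimmer one gave 0.55, so that Itgb1 was not distinguishable between the genotypes. Of the 6 beta subunits without a tested probe, Itgb2, Itgb2l, Itgb3 and Itgb7, most of them known from blood cells and platelets, were not above background on any array, and Itgb4 and Itgb6, subunits of epithelial integrins, were above it on scattered arrays of both genotypes.

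The integrin alpha subunits were mostly dim. Of 27 probes for 11 genes, 3 probes for Itga3 and Itga9 were tested and none was called. Itga3, whose product with beta 1 is a receptor for laminins, had a log2 fold change of -0.57 (SE 0.63, limma adjusted p = 0.751). Itga9, whose product binds tenascin-C, read 8.47, 10.80 and 11.61 in WT and 10.56, 9.59 and 8.85 in KO on its brighter probe, with overlapping groups and a log2 fold change of -0.63 (SE 0.89). The dimmer Itga9 probe gave -0.91 (SE 0.66). Itga1, Itga2, Itga7 and Itga8 were not above background on any array. Itga2b, Itga4, Itga5, Itga6 and Itga11 were above it on 1 or more arrays but on all 3 of neither genotype, with differences of -0.53 to 0.92 on such probes, so that the laminin receptor subunit Itga6 and the fibronectin receptor subunit Itga5 could not be compared. Itgb3bp, which the naming rule took in by its letters, encodes a centromere protein and not an integrin. It had a log2 fold change of 0.33 (SE 0.39).

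**Figure D3:**
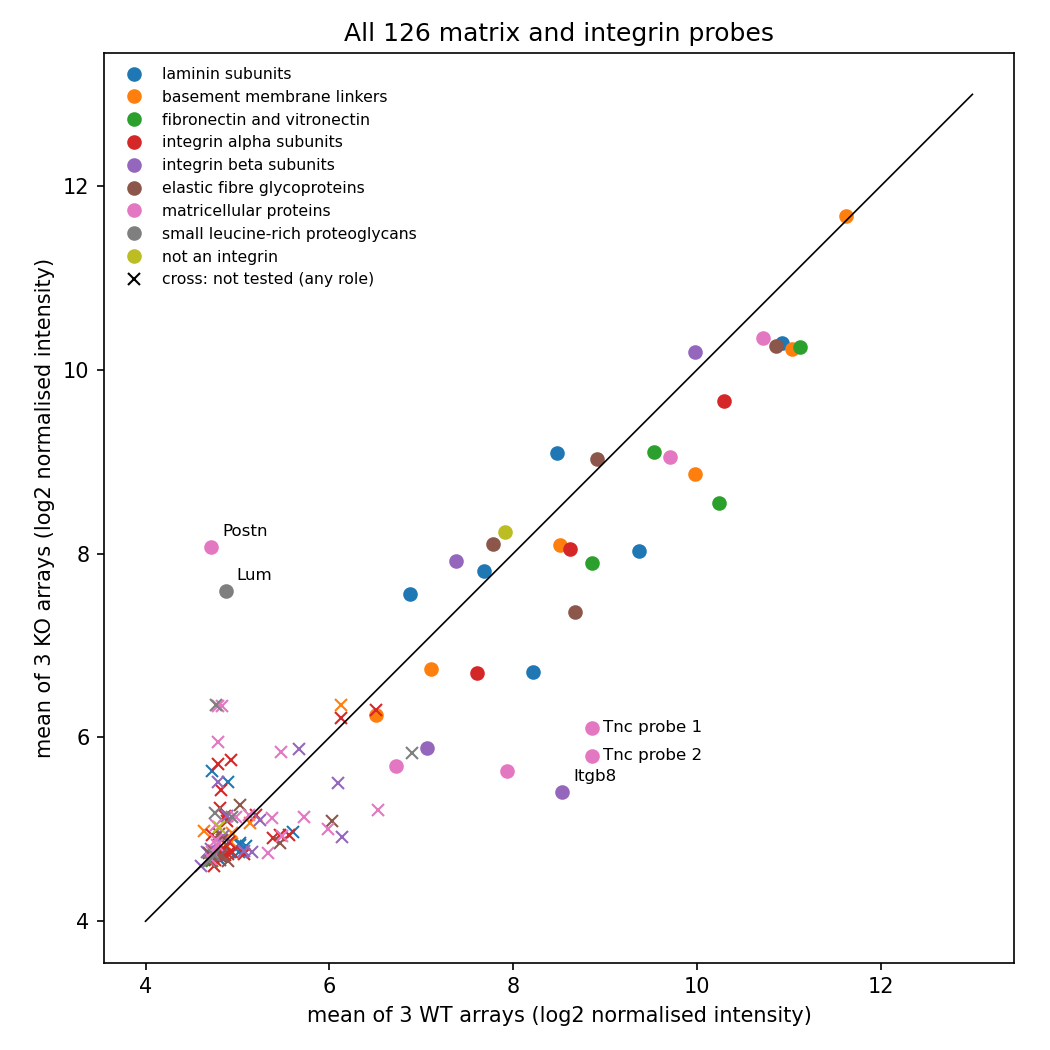
Mean log2 normalised intensity of 3 KO arrays (vertical axis) against 3 WT arrays (horizontal axis) for all 126 probes, coloured by role, with the line of equal level. Crosses are the 90 probes that were not tested, most of them near the background level of about 5 on both axes, and only Postn, Lum, Tnc and Itgb8 are labelled.

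Fibronectin, the matrix glycoprotein bound by many integrins, was the gene with the most tested probes together with Fbln1. All 4 Fn1 probes were above background on every array and all had negative fold changes. The brightest read 11.35, 10.88 and 11.15 in WT and 10.49, 10.13 and 10.13 in KO. Its groups did not overlap, and its log2 fold change of -0.88 (SE 0.27, limma adjusted p = 0.213) was not called. The second brightest read 10.53, 10.37 and 9.83 in WT and 9.73, 8.27 and 7.65 in KO, again without overlap, with a log2 fold change of -1.69 (SE 0.58, limma adjusted p = 0.246). The others gave -0.43 and -0.97 with overlapping groups. Of the 4 probes, 3 had an unadjusted p under 0.05, but they measure 1 gene on the same arrays and are not replicates. Vtn, which encodes vitronectin, was not above background on any array.

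Among the laminin subunits, which form the cross-shaped trimers of the basement membrane from 1 alpha, 1 beta and 1 gamma chain, no probe was called and the chains split in direction. Of 19 probes for 9 genes, 6 probes for 5 genes were tested, all of them above background on every array. Lama1, the alpha chain of the first laminin of the embryo, read 9.60, 10.21 and 8.30 in WT and 8.24, 8.13 and 7.72 in KO. The highest KO array lay just below the lowest WT array, and the log2 fold change was -1.34 (SE 0.53, limma adjusted p = 0.306). Lamb1, its usual beta chain, read 11.19, 10.77 and 10.82 in WT and 10.40, 10.53 and 9.95 in KO, with a log2 fold change of -0.63 (SE 0.29, limma adjusted p = 0.381). Lamb2, the alternative beta chain, read 8.22, 8.01 and 8.43 in WT and 7.92, 6.41 and 5.79 in KO, with a log2 fold change of -1.51 (SE 0.57, limma adjusted p = 0.284).

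The groups of all 3 of these genes did not overlap, whereas those of Lama5 and Lamc1 did. Lama5, an alpha chain of later epithelia, had a log2 fold change of 0.68 (SE 0.37, limma adjusted p = 0.468), and Lamc1, the gamma chain shared by most laminins, gave 0.62 (SE 0.60) and 0.13 (SE 0.33) on its 2 probes. Lama2 and Lamc3 were not above background on any array, and the Lamb3 probe and 2 of the Lama4 probes were above it on 1 array each.

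Among the proteins that link the basement membrane, Hspg2, which encodes the heparan sulfate proteoglycan perlecan, had the largest fold change. Its brighter probe read 10.79, 11.08 and 11.25 in WT and 10.68, 10.32 and 9.68 in KO, and its dimmer probe 9.70, 9.92 and 10.33 in WT and 9.34, 9.01 and 8.24 in KO. Neither set overlapped. The log2 fold changes were -0.81 (SE 0.35, limma adjusted p = 0.345) and -1.12 (SE 0.38, limma adjusted p = 0.246), and neither was called. Agrn, which encodes agrin, a heparan sulfate proteoglycan that binds laminin, read 11.59, 11.80 and 11.47 in WT and 11.46, 11.87 and 11.70 in KO. Its log2 fold change was 0.06, with a 95% interval of -0.58 to 0.69, and its groups overlapped.

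The nidogens Nid1 and Nid2, which bridge laminin and type IV collagen, had log2 fold changes of -0.27 (SE 0.61) and -0.37 (SE 1.05), and Npnt, which encodes nephronectin, an integrin ligand of basement membranes, one of -0.42 (SE 0.67). None of these 3 probes was separated between the genotypes. Of the Fraser complex genes, which anchor epithelia to the dermis, Fras1 was not above background on any array and Frem1 was above it on 1 KO array. Over this role 6 probes for 5 genes were tested, with fold changes from -1.12 to 0.06.

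The elastic fibre glycoproteins, which organise elastin and microfibrils, were measured through Fbln1 alone. Fibulin-1 binds fibronectin, laminin and nidogen. Its 4 tested probes were above background on all arrays, and they differed in sign. Fbln1 probe 1 read 11.15, 11.31 and 10.13 in WT and 9.82, 10.03 and 10.93 in KO, with a log2 fold change of -0.60 (SE 0.47), and probe 3 read 6.96, 9.14 and 9.94 in WT and 6.94, 7.81 and 7.35 in KO, with one of -1.31 (SE 0.78). Probes 2 and 4 gave 0.12 (SE 0.57) and 0.33 (SE 0.71). The groups of all 4 tested Fbln1 probes overlapped, and no direction can be given for the gene. Efemp1, Eln, Fbln2 and Fbln5 were not above background on any array, and Fbln7 was above it on 1 KO array.

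The promoters of the 3 genes with a called probe are shown to set the sequence at their start sites beside the values, 250 bases before to 50 after the start, from RefSeq on GRCm38.p6, 5′ to 3′ on the gene's strand. The array table names no build, and these coordinates are those of the RefSeq windows. Capitals mark matches on either strand to 5 motifs. The TATA core was searched as TATAA and the CCAAT box by its name. The GC box was searched as GGGCGG. The cyclic AMP response element, bound by CREB, a partner of CBP, was searched as TGACGTCA. The AP-1 site was searched as TGANTCA. No motif contains another. Where a gene had 2 windows in the table, that with TATAA 20 to 40 bases before the start is shown.
Tnc, chr4:64046887-64047186, minus strand: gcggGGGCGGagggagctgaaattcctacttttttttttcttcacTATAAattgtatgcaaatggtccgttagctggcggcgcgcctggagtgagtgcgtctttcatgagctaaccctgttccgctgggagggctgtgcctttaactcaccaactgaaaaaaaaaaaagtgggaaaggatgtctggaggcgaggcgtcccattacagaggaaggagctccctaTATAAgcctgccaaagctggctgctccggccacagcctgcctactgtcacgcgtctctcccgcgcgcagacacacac
Itgb8, chr12:119238227-119238526, minus strand: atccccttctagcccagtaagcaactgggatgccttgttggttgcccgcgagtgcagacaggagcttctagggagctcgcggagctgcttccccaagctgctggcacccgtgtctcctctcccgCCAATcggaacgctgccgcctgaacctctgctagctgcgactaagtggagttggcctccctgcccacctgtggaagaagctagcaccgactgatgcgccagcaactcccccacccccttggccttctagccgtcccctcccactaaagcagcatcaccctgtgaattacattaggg
Postn, chr3:54360857-54361156, plus strand: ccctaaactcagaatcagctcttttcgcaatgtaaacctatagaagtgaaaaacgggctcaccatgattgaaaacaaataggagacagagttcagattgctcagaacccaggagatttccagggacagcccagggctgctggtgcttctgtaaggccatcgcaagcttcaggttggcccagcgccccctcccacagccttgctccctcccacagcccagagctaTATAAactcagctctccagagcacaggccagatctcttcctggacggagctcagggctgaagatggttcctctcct

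The Tnc window held TATAA starting 27 bases before the start, a further TATAA 205 bases before it and a GC box 246 bases before it. The Postn window held TATAA 26 bases before the start. Of all 32851 windows in the table, 3.52% held TATAA on the same strand 20 to 40 bases before the start, and the Tnc and Postn windows were picked from 2 each for holding it. The Itgb8 window held no TATAA and 1 CCAAT, 126 bases before the start. Over the 17 of 22 tested genes with a window, 4 held TATAA in a window (24.9% of all windows), 5 CCAAT (37.4%), 11 GGGCGG (35.7%), 2 TGANTCA (7.81%) and none TGACGTCA (1.79%). A gene was counted when any of its windows matched, whereas the shares are of single windows. Genes with several windows had more chances to match, so the counts and shares cannot be compared directly. A match describes letters in the window and is not a binding site.

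Genes that act with these proteins but lie outside the naming rule were compared from a list of 89 genes and 202 probes, of which 47 probes were tested. One was called lower and none higher, against 0.425% and 0.417% of all tested probes. This was Spon2, which encodes the secreted matrix protein spondin 2, with 9.28, 8.14 and 10.70 in WT and 4.80, 4.74 and 4.68 in KO. No KO array was above background, so that Spon2 was at least 11.9-fold lower, a bound that again has no interval. Its fitted log2 fold change was -4.63 (SE 0.64, limma adjusted p = 0.048). The 26 tested probes of integrin adhesion adaptors had 15 negative and 11 positive fold changes with a median of -0.21, and no call (47% of all tested probes were negative). Dystroglycan, the other main laminin receptor, had fold changes of -0.01 and -0.20 on its 2 Dag1 probes. The 12 tested probes of elastic fibre and crosslinking partners had a median of 0.31, and no call.

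The direction of the 6 fold changes past 2 in size in Tnc, Itgb8, Postn and Lum held in every setting in which they could be fitted, but their calls did not. Leaving out any 1 of the 6 arrays ended all 4 calls, while the log2 fold changes stayed at -3.28 to -2.82 for Tnc probe 2, -2.94 to -2.43 for Tnc probe 1, -3.52 to -2.89 for Itgb8 and 3.06 to 3.88 for Postn. Without background correction all 4 were smaller and uncalled, at -2.07, -1.91, -2.0 and 2.12 in the same order, and in the authors' processed values Postn was larger, at 4.10. Tnc probe 1 was called in none of 12 alternatives, Itgb8 in 2 of 12, and Tnc probe 2 and Postn in 3 of 12.

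**Figure D4:**
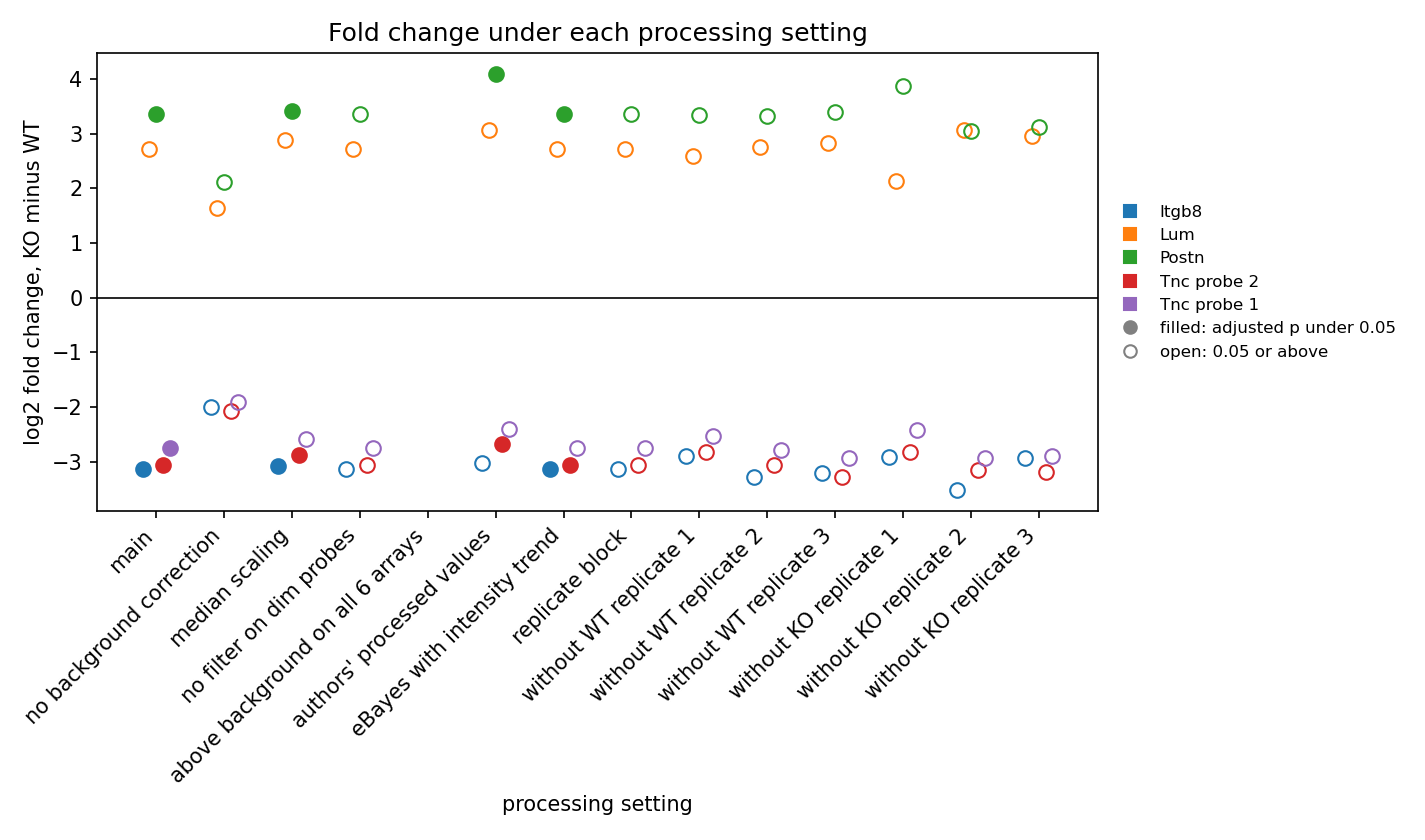
Log2 fold change, KO minus WT, of the 4 called probes and of Lum under each processing setting, filled where the limma adjusted p was under 0.05 and open otherwise. The points keep their side of zero throughout, none is filled when an array is left out, and the setting that requires a probe above background on all 6 arrays leaves out all 5 probes.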

How the data were processed

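The authors deposited, for each array, the summarised bead intensity on a linear scale before normalization, with a detection p-value against the negative control beads and a count of beads per probe. The deposited detection p-values set which probes were above background (under 0.01), and the deposited bead counts (median 43 to 44 per array) were read only as a check. A deposited table of processed intensities, which per the methods were cubic spline normalised in GenomeStudio, served as an alternative. Platform annotation gave 1 symbol to 34885 of 45281 probes, several to 18 and none to 10378, and all 59 symbols matched current gene names.

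Using limma 3.58.1 in R 4.3.3, intensities were corrected by normexp (parameters from the detection p-values, offset 16), quantile normalised and put on the log2 scale. Probes above background on all 3 arrays of a genotype were kept (12697 probes, 7141 genes). A mean per genotype was fitted to all of them with lmFit and eBayes (residual df 4, prior df 2.15). Benjamini-Hochberg adjustment ran over every tested probe. No pair of arrays held identical values, and all 6 lay on 1 BeadChip. Array number limits precision. Apart from summed marker levels, background bounds and the order of probes by brightness, levels were not set against each other between probes.

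Values were given for called genes, for probes without overlap between genotypes and a log2 change of at least 1, for the brightest probe and the one with the largest change in each role, and for genes whose probes differed in sign with a change of at least 1. Alternatives were no background correction, median scaling, no filter, a filter on all 6 arrays, the processed table, an intensity trend, the replicate number as a block, and each array left out. Alternatives for the related-gene list were added after seeing the data. The members and lists were chosen with earlier results of these data known.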

Additional observations from a re-analysis of the deposited data

How the results depend on the processing

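Against 3 matrix and integrin probes called lower and 1 called higher in KO, there were 0 and 0 without background correction (12 and 2 at an unadjusted p under 0.05), 0 and 0 with no filter (15 and 6), 0 and 0 with the filter on all 6 arrays (8 and 0), 1 and 1 in the authors' processed values (11 and 2), and 0 and 0 with each array left out (5 to 11 and 2 to 3). Over all probes, 54 were called lower and 53 higher, against 17 and 19 without background correction, 36 and 30 with no filter, 2 and 0 with the filter on all 6 arrays, 29 and 63 with median scaling, and 0 to 0 and 0 to 3 with an array left out. With the replicate number as a block, 0 matrix and integrin probes were called in either direction (8 lower and 2 higher at an unadjusted p under 0.05), as were 0 of all probes (772 and 1042). The labels give each genotype the numbers 1 to 3. The deviations of WT and KO arrays correlated at -0.03 to 0.02 over all combinations, and at -0.03 to 0.001 for arrays of the same number. No pairing by number was seen, although these values cannot exclude a weak one, and the numbers were used as names only. The 1 call in the related-gene list became 0 without background correction, with no filter, with the filter on all 6 arrays, with the block and, in each case 0 to 0, with an array left out (5 to 14 probes at an unadjusted p under 0.05). The median log2 fold change of the tested matrix and integrin probes, -0.61, was -0.07 with no filter. That setting took the median over all 126 probes, of which 60 were above background on no array. Without WT replicate 2 the median of the same tested probes was -0.41. The cause of this last shift was not tested.

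Small fold changes turned sign. With median scaling Agrn was -0.0811. With 1 array left out, Agrn ranged from -0.0391 (without KO replicate 2, and -0.0155 without WT replicate 3) to 0.166, Fbln1 probe 2 from -0.307 (without KO replicate 2, and -0.246 without WT replicate 2) to 0.597, Fbln1 probe 4 from -0.483 (without WT replicate 2) to 0.875, the brighter Itga9 probe from -1.54 to 0.0314 (without WT replicate 3), the dimmer Lamc1 probe from -0.0884 (without WT replicate 1, and -0.0122 without KO replicate 2) to 0.305, Nid1 from -0.859 to 0.282 (without WT replicate 3), Nid2 from -1.46 to 0.592 (without KO replicate 2) and Npnt from -1.17 to 0.0241 (without WT replicate 1). The other fold changes kept their direction. Levels near background limit Postn and Lum in WT and Itgb8 and Tnc in KO.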
